A study of Homo sapiens with 4 samples.

Results

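The MYC, MAX and MXD network was taken as 9 genes, chosen by symbol: MYC, its partner MAX, the MAX-binding antagonists MXI1, MXD1, MXD3, MXD4, MNT and MGA, and the MAX-like factor MLX. All 9 were among the 25066 genes with values, and all 9 were among the 16945 genes tested, each with at least 299 reads in every library. MYC is a basic helix-loop-helix leucine zipper transcription factor that binds DNA as a heterodimer with MAX and drives growth, ribosome production and cell division. MXD proteins, MXI1, MNT and MGA compete with MYC for MAX and for the same E-box DNA sites, and the MXD proteins and MNT recruit the SIN3-histone deacetylase corepressor. In germinal centers MYC is induced in the few B cells that are positively selected, and its activation is frequent in aggressive B cell lymphoma.

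The cells were NUDUL1, a human line of diffuse large B cell lymphoma (DLBCL) of the germinal center type, engineered as a single-cell clone with doxycycline-inducible Cas9 and then transduced with Tbxa2r, the Gα13-coupled thromboxane receptor. Cells with a control single guide RNA (sgRNA) and cells with an sgRNA against GNA13, 1 guide per genotype, were treated with U46619, a stable thromboxane-A2 analog, at 10 nM for 24 h. RNA was sequenced from 2 libraries per genotype, labelled replicate 1 and replicate 2. No label ties them to separate clones or days, so p values measure only the spread between these libraries. The receptor was thus stimulated in all 4 libraries, and the comparison was of genotypes under stimulation. Each library had between 29209544 and 31537955 mapped reads. GNA13 mRNA had normalized log2 reads of 12.46 and 12.45 under the control label and 13.10 and 13.11 under the GNA13-deficient label. The targeted mRNA was thus higher, by 0.65, where the label names its loss (adjusted p = 0.00214 from limma, described below). Directions below therefore rest on the labels. All 8 B cell markers examined were detected, with log2 values from 10.21 to 14.33. By the test described below, 37.5% of these 8 differed, against 29.7% of all genes tested. The GNA13-deficient-labelled mean was higher for 3 of the 8 and lower for 5. MS4A1 and BLNK were among those that differed and were lower in the GNA13-deficient-labelled libraries. Markers of other cell types were few: CD3D, CD3E, CD2, FCGR3A and KRT8 were listed at 0 throughout. Summed reads in the control-labelled libraries and then GNA13-deficient were 24 and 19, then 9 and 1, for the 5 T cell markers, 224 and 246, then 27 and 25, for the 5 myeloid markers and 45 and 50, then 105 and 105, for the 5 markers of stroma and epithelium; among these, LYZ and ITGAM fell and EPCAM rose. Their part in the results was not tested.

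MYC mRNA and 3 of its antagonists, MXI1, MNT and MXD4, fell in the GNA13-deficient-labelled libraries, while MAX, MLX, MXD1, MXD3 and MGA did not pass the test. In limma with Benjamini-Hochberg adjustment over all genes tested, the adjusted p was under 0.05 for 4 of the 9, against 29.7% of all genes tested. All 4 were lower, against 16.6% of all genes called lower, and none was higher, against 13.1%. The same 4 genes were those whose libraries did not overlap between genotypes, with both GNA13-deficient-labelled libraries below both control-labelled ones, as in 34.0% of all genes. The median log2 difference, GNA13-deficient minus control, was -0.19 over the 9 genes and -0.02 over all genes tested. In bulk libraries, fewer expressing cells and less RNA per cell cannot be told apart.

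**Figure D1:**
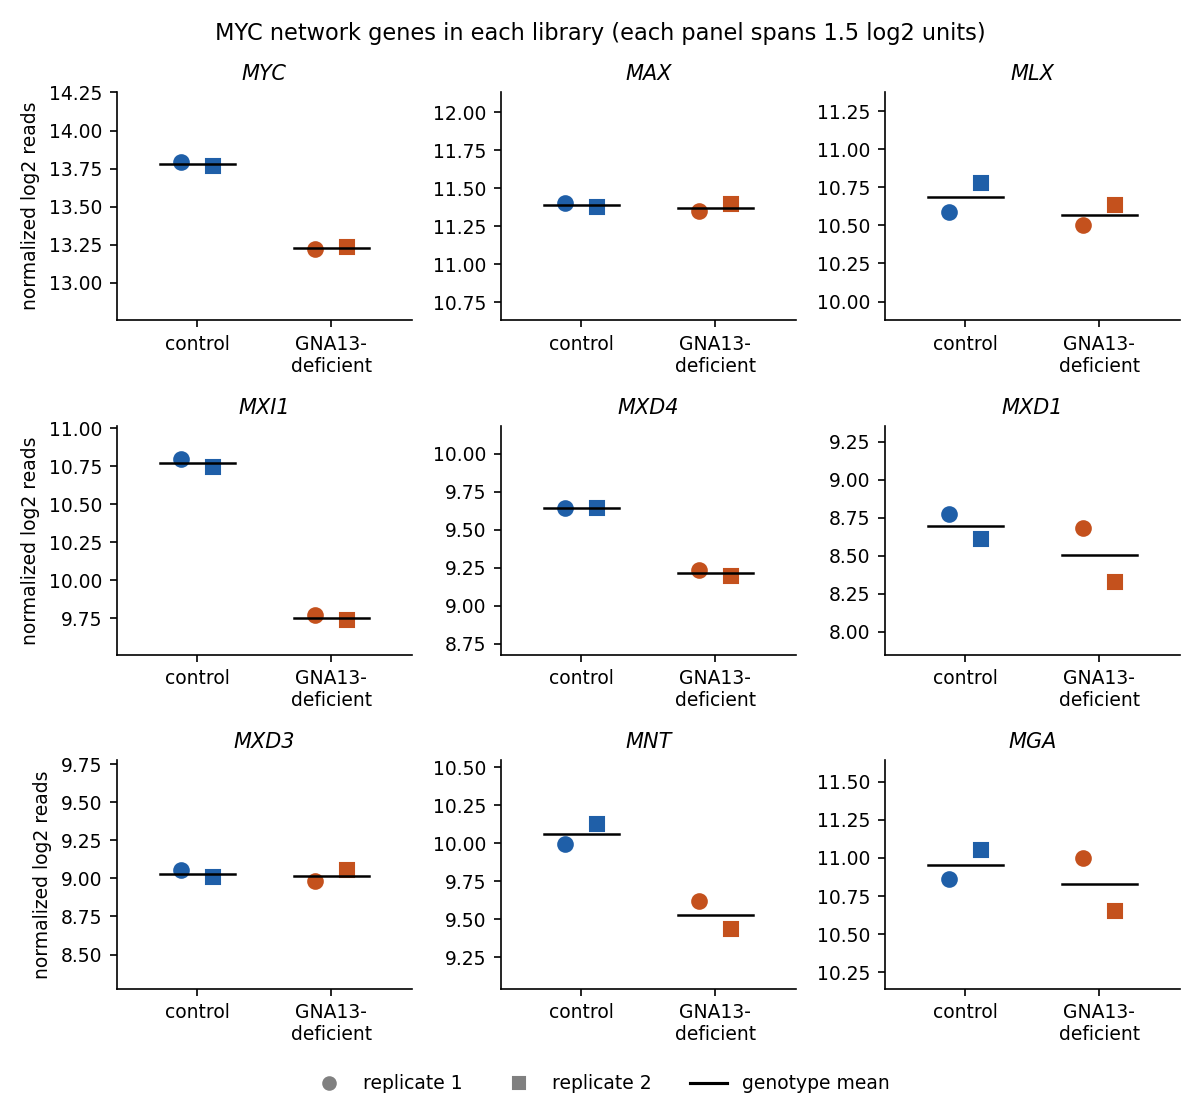
Normalized log2 reads (y axis) of each of the 9 genes in the control-labelled (blue) and GNA13-deficient-labelled (orange) libraries, with circles for replicate 1, squares for replicate 2 and lines for the genotype mean; every panel spans the same number of log2 units. MYC, MXI1, MXD4 and MNT separate by genotype, with MXI1 going from 10.77 to 9.75 on average, and the libraries of the other 5 genes overlap.

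MYC itself (Entrez 4609) had normalized log2 values of 13.79 and 13.77 in the control-labelled libraries and 13.22 and 13.23 in the GNA13-deficient-labelled libraries. Replicates differed by 0.02 and 0.01, and the gap between the genotypes was 0.54. The difference was -0.55 (standard error 0.06, n = 2 per genotype, adjusted p = 0.00358 from limma), which is a level 31.7% lower. MYC kept an adjusted p under 0.05 in all 10 alternative fits that used the 4 libraries, at most 0.0344; its difference was -0.34 when each library was centred on its median. Among the 8472 other genes at or above the median level, those whose 4 values moved most like those of MYC, by Euclidean distance after removal of each gene's mean, were ASAH1 at a distance of 0.017, KIAA0141 at 0.019 and CSNK1E at 0.022. Their differences between genotypes were -0.555, -0.5355 and -0.559. A choice by this distance itself selects genes with a difference close to that of MYC. Shared regulation with MYC was not tested.

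MAX, the obligate partner that MYC shares with its antagonists, had log2 values of 11.41 and 11.38 in the control-labelled libraries and 11.35 and 11.40 in the GNA13-deficient-labelled libraries. Its difference was -0.02, with a 95% interval from -0.15 to 0.12 (adjusted p = 0.832 from limma). The libraries of the genotypes overlapped, and the interval leaves out a fall of the size seen for MYC. MLX pairs with the glucose-responsive Mondo factors and with some MXD proteins. Its log2 values were 10.59 and 10.78 in the control-labelled libraries and 10.50 and 10.64 in the GNA13-deficient-labelled libraries, also overlapping (difference -0.12, 95% interval -0.35 to 0.12).

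The antagonist with the largest difference was MXI1 (Entrez 4601, chromosome 10 from 111967363 to 112047123, plus strand, GRCh37), which competes with MYC for MAX and binds SIN3. Its log2 values were 10.80 and 10.74 in the control-labelled libraries and 9.77 and 9.74 in the GNA13-deficient-labelled pair. The libraries of a genotype lay within 0.05 of each other and the genotypes were 0.97 apart. The difference was -1.02 (standard error 0.06, n = 2 per genotype, adjusted p = 0.00132 from limma), to 49.4% of the control level. Among all genes tested it ranked 1920 from the lowest, at percentile 11.3, and MYC ranked 3464, at percentile 20.4. The call held in all 10 alternative fits on the 4 libraries, with an adjusted p of at most 0.0158.

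MNT (Entrez 4335, chromosome 17 from 2287367 to 2304398, minus strand, GRCh37) is a broadly expressed antagonist that is present in resting and in dividing cells. It had log2 values of 10.00 and 10.12 in the control-labelled libraries and 9.62 and 9.43 in the GNA13-deficient-labelled pair. Its replicates were more spread, by 0.13 and 0.19, and the gap between genotypes was 0.38. The difference was -0.53 (standard error 0.09, adjusted p = 0.0152 from limma). The call was lost without the filter on low values (adjusted p = 0.107), without the variance trend (adjusted p = 0.0706) and with median centring, where the difference was -0.33 (adjusted p = 0.0517).

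MXD4 (Entrez 10608, chromosome 4 from 2249159 to 2263836, minus strand, GRCh37), a MAX-binding repressor associated with differentiated, resting cells, was at 9.64 in both libraries labelled control and at 9.24 and 9.20 in the GNA13-deficient-labelled pair. The genotypes did not overlap. The difference was -0.42 (standard error 0.07, adjusted p = 0.0112 from limma), 25.4% lower on the linear scale. It also missed the threshold without the variance trend (adjusted p = 0.0518) and with median centring, where the difference was -0.22 (adjusted p = 0.0643).

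The other 3 antagonists did not pass the test. MXD1, which is induced when cells of several lineages differentiate, had log2 values of 8.78 and 8.61 in the control-labelled libraries and 8.69 and 8.33 in the GNA13-deficient-labelled pair. GNA13-deficient replicate 2 was lowest and the other library of that label lay between the control values (difference -0.19, 95% interval -0.58 to 0.20). MXD3, which unlike the other MXD genes is expressed during S phase in dividing cells, had log2 values of 9.05 and 9.01, then 8.98 and 9.05, and a difference of -0.01 (95% interval -0.21 to 0.19). In the annotation 43.7% of the exonic bases of MXD3 are shared with exons of PRELID1, on the opposite strand, and RAB24, on the same strand. The shares were 18.2% for MLX, 16.1% for MAX and 12.2% for MNT, all with exons on the opposite strand. How such reads were assigned is not stated, so the level of MXD3 in particular is uncertain. MGA, a large protein that joins a T-box to a MAX-binding domain and nucleates a Polycomb complex, had log2 values of 10.86 and 11.05, then 11.00 and 10.65. Its difference of -0.13 lay inside the spread of 0.35 between the GNA13-deficient-labelled libraries (95% interval -0.49 to 0.23). For MXD1 and MGA the intervals still include falls as large as that of MXD4.

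**Figure D2:**
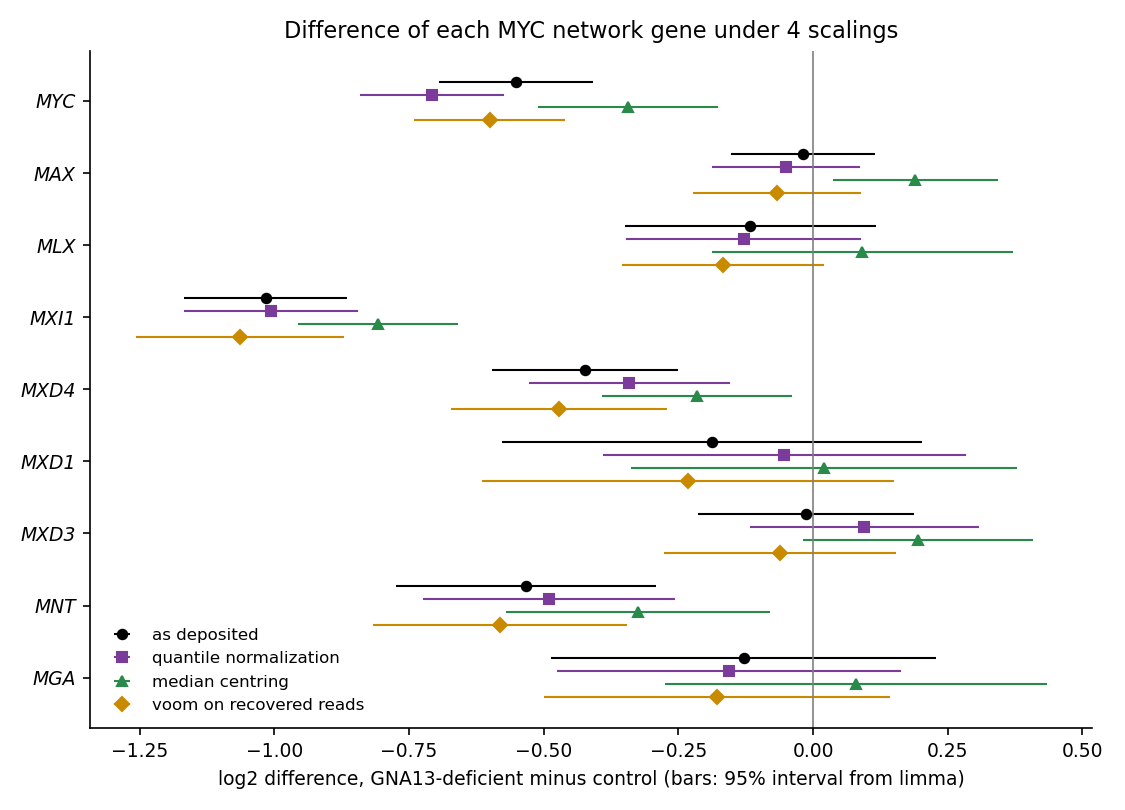
Log2 difference (x axis, GNA13-deficient minus control) of each gene with its 95% interval from limma, on the deposited values (black circles), after quantile normalization (purple squares), after median centring (green triangles) and by limma voom on the recovered reads (yellow diamonds). MYC, MXI1, MXD4 and MNT stay below 0 in each; MAX moves from -0.02 to 0.19 and MXD3 from -0.01 to 0.20 with median centring.

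The direction of small differences depended on how the libraries were scaled. Median centring raised the median of all genes tested from -0.02 to 0.18, a shift of 0.21 that applies to every gene. Under it MAX, MXD1, MXD3, MGA and MLX, all at or below -0.01 as deposited, took values from 0.02 to 0.20, none past the threshold. Relative to the median of all genes, MXI1 was 0.99 lower, MYC 0.53 lower, MNT 0.51 lower and MXD4 0.40 lower, while MAX was within 0.01 of it. Quantile normalization kept the 4 calls, with differences of -1.01 for MXI1, -0.71 for MYC, -0.49 for MNT and -0.34 for MXD4.

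Comparing genes inside each library removes the scaling. MYC exceeded MAX by 2.38 and 2.39 log2 units in the control-labelled libraries and by 1.87 and 1.84 in the GNA13-deficient-labelled pair, a change of -0.53. MYC exceeded MXI1 by 2.993 and 3.023, then by 3.451 and 3.495, so that this distance went the other way and grew by 0.47 (1.38 times). The distance from MYC to MXD4 was 4.15 and 4.13, then 3.98 and 4.03, a change of -0.13. The distance to MNT was 3.79 and 3.64, then 3.60 and 3.80, which overlapped. MXI1 minus MAX was -0.61 and -0.63 in the control-labelled libraries and -1.58 and -1.66 in the GNA13-deficient-labelled pair. The lead of MYC was thus smaller in the GNA13-deficient-labelled pair over MAX, MLX, MGA, MXD1, MXD3 and MXD4 and larger over MXI1, while the libraries overlapped for MNT (change -0.02). Each of these leads uses the same MYC values, so they largely restate the fall of MYC, which was at percentile 20.4 of all genes tested. The share of all genes over which the lead of MYC was smaller was not computed. An exact permutation test of 2 libraries against 2 cannot pass the threshold. These distances are given as values, and no model was fitted to them.

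**Figure D3:**
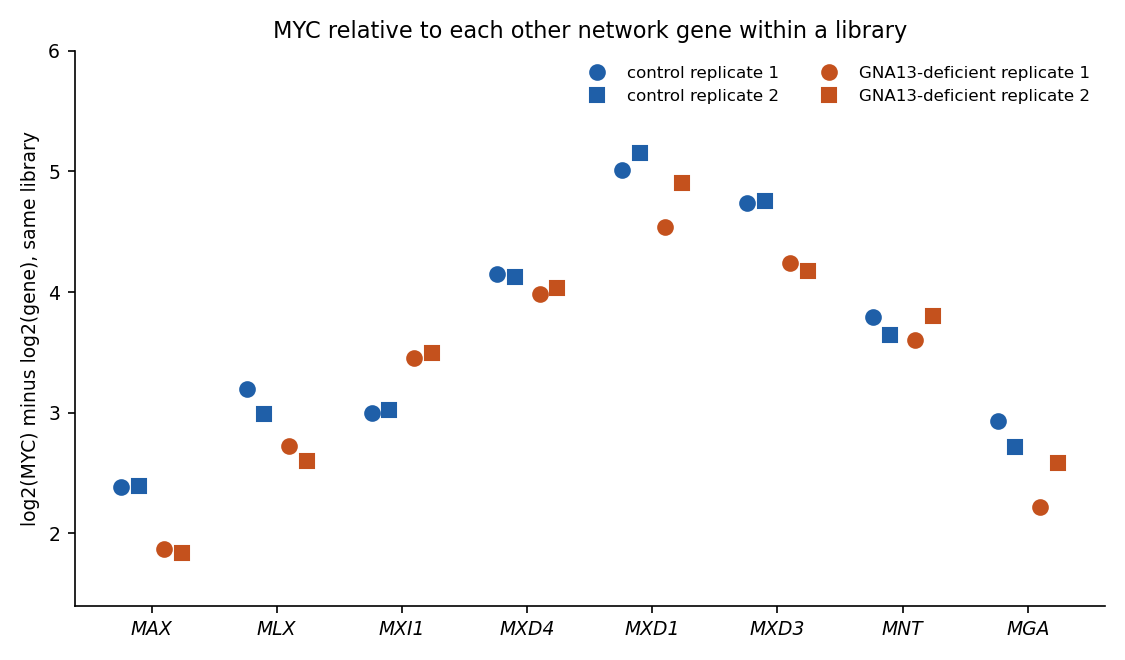
Log2 value of MYC minus that of each other network gene in the same library (y axis), for libraries labelled control (blue) and GNA13-deficient (orange), with circles for replicate 1 and squares for replicate 2. The distance to MXI1 is larger in the GNA13-deficient-labelled libraries (3.451 and 3.495 against 2.993 and 3.023), the distance to MNT overlaps and the remaining distances are smaller.

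Levels of different genes were compared per length, as RPKM computed from the recovered reads and the longest coding transcript. MYC was the highest of the 9 genes in every library. It was at 124 ± 5.2 (SD, n = 2) in the control-labelled libraries and 82.0 ± 1.5 in the GNA13-deficient-labelled pair. MAX followed at 28.1 ± 1.3 and 26.7 ± 0.034, so that the ratio of MYC to MAX was 4.44 and 3.07 on this scale. MLX was at 21.0 ± 1.3 and 18.7 ± 0.80. MXI1 was the highest of the antagonists in the control-labelled libraries, at 16.6 ± 0.94, and was at 7.92 ± 0.32 in the GNA13-deficient-labelled pair, beside MXD3 at 7.60 ± 0.39 and 7.27 ± 0.089. MNT (7.14 ± 0.22), MXD4 (6.80 ± 0.21), MGA (4.49 ± 0.28) and MXD1 (2.45 ± 0.27) followed in the control-labelled libraries, where no neighbours in the order overlapped. In the GNA13-deficient-labelled pair MNT (4.78 ± 0.54) overlapped both MXD4 (4.90 ± 0.21) and MGA (4.00 ± 0.78). MXI1 made up 49.7% and 49.5% of the summed level of MXI1, MXD1, MXD3 and MXD4 in the control-labelled libraries and 35.7% and 35.7% in the GNA13-deficient-labelled pair.

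The ratio of MYC to its summed antagonists did not separate the genotypes on this scale. The ratio of MYC to the sum of all 6 antagonists was 2.78 and 2.73 in the control-labelled libraries and 2.56 and 2.75 in the GNA13-deficient-labelled pair, which overlapped. Without MXD3, whose reads are uncertain, it was 3.36 and 3.28, then 3.28 and 3.66, overlapping again. Over MXD1, MXI1, MXD3 and MXD4 it was 3.69 and 3.75, then 3.65 and 3.75, which overlapped. Over MXD1, MXI1 and MXD4 alone it was 4.77 and 4.86, then 5.33 and 5.68, higher in both libraries of the GNA13-deficient label. With the median transcript length of each gene in place of the longest, the ratio to all 6 was 3.05 and 2.98, then 2.74 and 2.92, and no longer overlapped. That separation depended on MXD3: on the median length without MXD3 the ratio was 4.02 and 3.90, then 3.95 and 4.43, which overlapped. On the same length the ratio over MXD1, MXI1, MXD3 and MXD4 was 4.15 and 4.23, then 4.02 and 4.06, lower in both GNA13-deficient-labelled libraries. Over MXD1, MXI1 and MXD4 alone it was 6.20 and 6.32, then 7.32 and 7.73, higher in both. The median length also placed MGA above MXD4, and placed MXI1 above MLX in the control-labelled mean (27.0 against 23.1) but not in the GNA13-deficient-labelled mean (12.9 against 20.6, with MXD3 at 17.1). It put the mean of MYC at 227 in the control-labelled libraries and 149 in the GNA13-deficient-labelled pair. MAX was then at 98.7 and 94.1, so that the ratio of MYC to MAX was smaller than with the longest transcript.

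**Figure D4:**
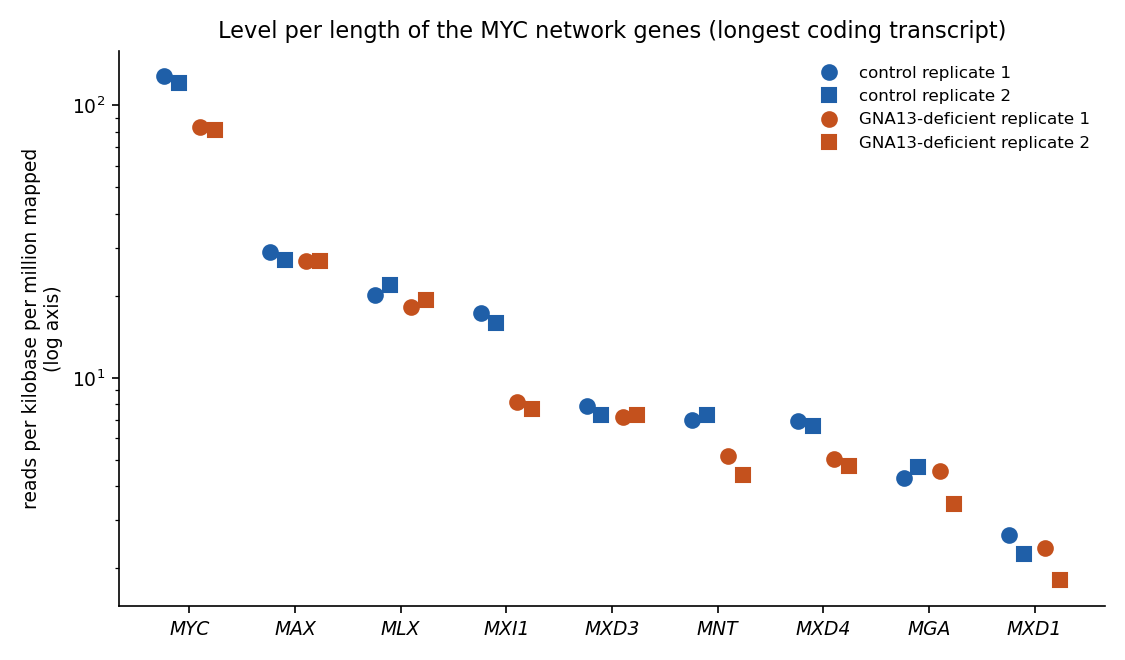
RPKM of recovered reads over the longest coding transcript (y axis, log scale) for the 9 genes, with blue for libraries labelled control, orange for GNA13-deficient, circles for replicate 1 and squares for replicate 2. MYC is highest in every library, and MXI1 drops from a mean of 16.6 to 7.92, close to that of MXD3 (7.27).

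The promoters shown are those of the 3 antagonists that fell, with that of MLX, which did not pass the test, for comparison. Whether these genes share a regulator was not tested. RefSeq windows (GRCh38.p14) ran from 250 bases before to 50 after an annotated start, in the direction of the gene. For 8 of the 9 genes 13 windows were used, and MYC was left out of the search. Both strands were searched for the E-box CACGTG, to which MYC-MAX and MXD-MAX bind, and for the forkhead motif GTAAACA, which FOXO factors recognise. The E2F motif (TTTCCCGC, TTTCGCGC, TTTGCCGC or TTTGGCGC) was searched as well. The E-box reads the same on both strands, and no window held more than 1 of the motifs. Coordinates here are of GRCh38 and cannot be set against the GRCh37 positions above. MXI1 has 3 annotated starts in these windows, and the values are summed over its transcripts. Start 2 (chr10:110209981-110210280, plus strand) holds the reverse complement of the forkhead motif 151 bases before the start. Start 3 (chr10:110225746-110226045, plus strand) holds a forkhead motif that begins 2 bases before the start and runs across it. The promoters of MXD4 (chr4:2262060-2262359, minus strand) and MNT (chr17:2401011-2401310, minus strand) hold an E-box 238 and 193 bases before the start, and that of MLX (chr17:42566850-42567149, plus strand) holds an E-box 50 bases before it. Capitals mark these motifs.
MXI1, start 2: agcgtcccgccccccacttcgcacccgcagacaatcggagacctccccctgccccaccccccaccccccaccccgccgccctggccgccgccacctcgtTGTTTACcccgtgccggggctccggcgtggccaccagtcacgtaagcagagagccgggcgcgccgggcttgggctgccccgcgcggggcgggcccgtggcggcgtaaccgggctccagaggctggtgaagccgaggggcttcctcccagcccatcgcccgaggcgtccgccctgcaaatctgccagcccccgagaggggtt
MXI1, start 3: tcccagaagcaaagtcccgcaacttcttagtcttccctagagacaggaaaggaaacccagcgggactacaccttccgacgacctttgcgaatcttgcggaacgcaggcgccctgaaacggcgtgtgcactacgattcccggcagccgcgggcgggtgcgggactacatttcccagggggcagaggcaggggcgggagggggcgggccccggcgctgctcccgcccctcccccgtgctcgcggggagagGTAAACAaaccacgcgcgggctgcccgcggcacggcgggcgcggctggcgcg
MXD4: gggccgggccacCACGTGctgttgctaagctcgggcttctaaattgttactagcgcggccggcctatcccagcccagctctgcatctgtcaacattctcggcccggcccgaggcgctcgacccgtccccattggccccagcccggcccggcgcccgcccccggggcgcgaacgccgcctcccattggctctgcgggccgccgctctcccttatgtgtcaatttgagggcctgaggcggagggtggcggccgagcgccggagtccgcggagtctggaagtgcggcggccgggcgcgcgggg
MNT: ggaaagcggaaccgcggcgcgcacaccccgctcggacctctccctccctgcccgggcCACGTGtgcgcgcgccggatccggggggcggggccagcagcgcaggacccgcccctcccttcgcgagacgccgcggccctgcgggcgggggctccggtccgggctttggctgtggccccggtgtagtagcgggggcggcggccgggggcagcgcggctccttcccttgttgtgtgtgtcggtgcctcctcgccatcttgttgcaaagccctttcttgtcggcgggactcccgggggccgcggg
MLX: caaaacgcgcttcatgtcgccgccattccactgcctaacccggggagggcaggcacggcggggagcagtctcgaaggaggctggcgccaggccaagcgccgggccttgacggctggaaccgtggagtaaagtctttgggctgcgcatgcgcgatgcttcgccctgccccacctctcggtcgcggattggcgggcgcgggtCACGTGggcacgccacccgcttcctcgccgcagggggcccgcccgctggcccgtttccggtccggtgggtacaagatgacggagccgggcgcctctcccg

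Over all 35116 promoter windows, 7.26% hold an E-box and 3.42% hold the forkhead motif. The windows of MAX, MXD1 and MXD3 and the first window of MXI1 hold none of the motifs searched, and of the 3 windows of MGA the third holds an E2F motif, which 3.31% of all windows do. E-boxes thus stood in promoters of genes that fell (MXD4, MNT) and of a gene that did not pass the test (MLX), and the forkhead motif stood in windows of MXI1 alone among the 8 genes. A match is a description of these letters and no binding was measured.

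Of 4 other genes of the MYC family and the Mondo branch, 2 were listed at 0 and 1 was called lower. MYCN, and MLXIPL, the liver-enriched Mondo factor, were listed at 0 in all libraries. MYCL1 had 24 and 31 reads under the control label, 14 and 14 in the GNA13-deficient-labelled pair, and did not pass the test (adjusted p = 0.103). MLXIP, which encodes MondoA, the main partner of MLX, had log2 values of 11.78 and 11.81, then 11.52 and 11.43, and fell by 0.32 (adjusted p = 0.0171 from limma); this call was lost with median centring. TXNIP, a widely used readout of MondoA-MLX that restrains glucose uptake, had log2 values of 13.14 and 12.98, then 12.64 and 12.54, and fell by 0.47 (adjusted p = 0.0132), a call that held under both scalings. ARRDC4, its other listed target, was at 0.

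On the deposited values no corepressor or Polycomb partner was called lower. Of 17 SIN3 complex genes, 4 were higher, none was lower and 13 did not pass (median difference -0.05). Over all genes tested 29.7% were called, 13.1% higher and 16.6% lower, so the share of SIN3 genes called was near the background, and the count was 2 without the filter on low values and 1 without the variance trend. RBBP7 rose by 0.84, ING2 by 0.52 and RBBP4 by 0.30; RBBP4 and RBBP7 are histone chaperones shared with other complexes, and ING2 reads methylated histone H3. SIN3A, the scaffold that MXD proteins bind, had log2 values of 12.32 and 12.23, then 12.30 and 12.16, which overlapped. Of 11 genes of the Polycomb complex that MGA nucleates, 5 were higher and none lower (median 0.16), against 13.1% and 16.6% of all genes tested. Without the filter 3 of the 11 passed, and without the variance trend 2 did. CBX1, a heterochromatin protein, rose by 0.62, PCGF6, the subunit that defines this complex, rose by 0.59 and YAF2 by 0.44. After quantile normalization 2 SIN3 genes and 1 gene of the MGA complex were called lower.

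**Figure D5:**
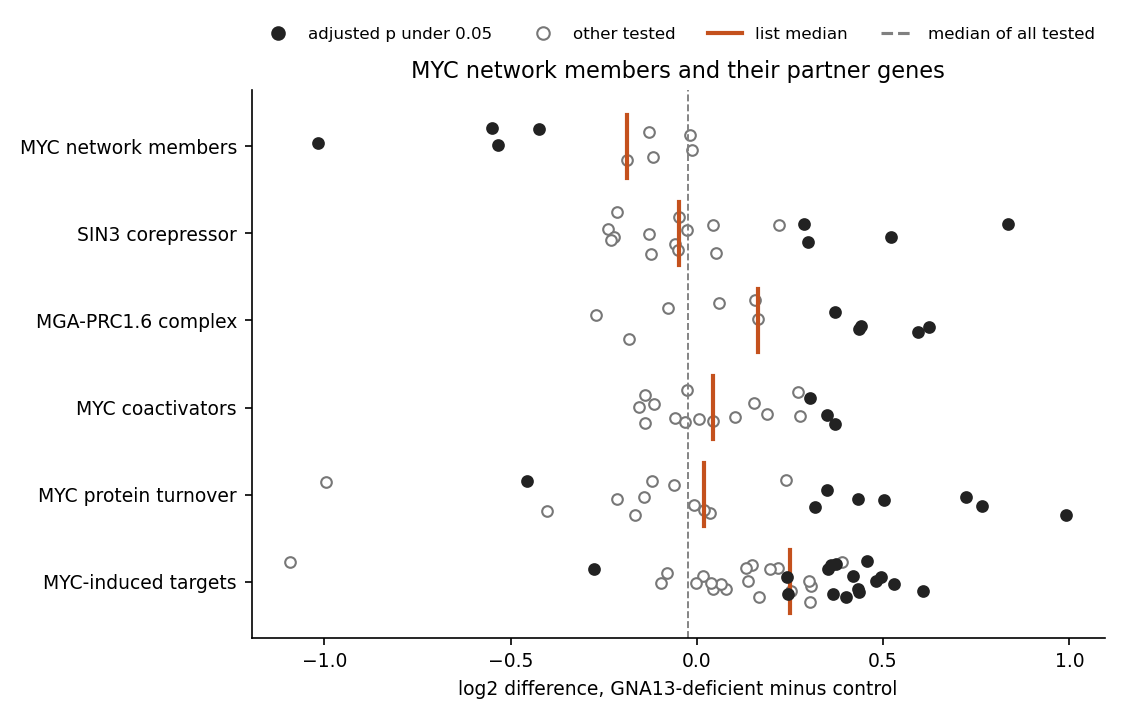
Log2 difference (x axis, GNA13-deficient minus control) of every tested gene in the MYC network and in 5 partner lists, filled where the adjusted p was under 0.05, with the list median (orange) and the median of all genes tested (dashed, -0.02). The 4 filled network genes lie below 0, and the filled genes of the partner lists lie above 0 except 1 in the turnover list and 1 among the MYC-induced targets.

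Among 17 coactivators of MYC, 3 were higher and none lower (median 0.04), which is close to the 13.1% of all genes called higher; without the variance trend none passed. WDR5, a MYC-binding adaptor that is also counted in the MGA complex, rose by 0.37, RUVBL2, a DNA-dependent ATPase, by 0.35 and PAF1, an elongation factor, by 0.30. Of 19 tested genes known to act on MYC protein stability, 7 were higher and 1 was lower (median 0.02), against 13.1% of all genes called higher and 16.6% called lower. Without the filter, and likewise without the variance trend, 3 of the 19 passed. KIAA1524, which encodes the phosphatase inhibitor CIP2A that stabilises MYC, had log2 values of 10.31 and 10.18, then 11.30 and 11.17, and rose by 0.99 (standard error 0.08, adjusted p = 0.00222 from limma). USP37, a deubiquitinase for MYC, rose by 0.77, and SKP2, an S phase ubiquitin ligase that ubiquitinates MYC, rose by 0.72. The lower gene was USP28, a deubiquitinase that counters FBXW7, which fell by 0.46. FBXW7, the ubiquitin ligase that recognises phosphorylated MYC, had log2 values of 10.11 and 9.77, then 9.66 and 9.42, and did not pass (adjusted p = 0.106).

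Of 36 genes that MYC is known to induce, 15 were higher, 1 was lower and 20 did not pass, against 13.1% of all genes called higher and 16.6% called lower. The median was 0.25 against -0.02 for all genes tested. Of the 36, 31 had a mean above the control mean, as did 8143 of the 16945 genes tested. This list, like the others, was chosen with earlier results of these data known. CDK4, the cyclin D kinase, rose by 0.61, ENO1, a glycolytic enzyme, by 0.53 and HSPE1, a mitochondrial chaperonin subunit, by 0.49; HK2, a hexokinase, was the lower one and fell by 0.28. The counts were 26 higher and none lower with median centring and 13 higher and 2 lower after quantile normalization, and 1 of the 36 passed without the filter on low values and 2 without the variance trend. Of 9 genes listed as repressed by MYC, some of them through its partner MIZ1, 3 were higher and 2 lower, against the same 13.1% and 16.6%. Of the 9, 2 passed without the filter, 2 without the variance trend and 3 with voom. GADD45A, a stress-induced growth arrest gene, fell by 1.59 and NDRG1, a stress-responsive growth suppressor, by 0.70. NDRG2, a relative of NDRG1, had 4 reads in control replicate 1 and was listed at 0 in control replicate 2. It had 27 and 14 reads in the GNA13-deficient-labelled pair. In control replicate 2 no gene was listed at 1 read, so that a 0 there may stand for 1 read.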

How the data were processed

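RNA sequencing of NUDUL1 cells was analysed in 4 libraries, grouped by their labels. Per the methods and labels, poly(A) libraries were made with a stranded kit, the authors used STAR with the hg19 genome, and the deposited values are log2 of normalized reads; HTSeq is listed in the submitters' processing notes, and the annotation, the strand setting and the method of normalization are not given in the sources used here. These log2 reads, as deposited by the authors, were used as they stand; a deposited row of total mapped reads was used for the depth.

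A gene was tested if 2 or more libraries exceeded 0, the lowest value. Differences were tested by lmFit and eBayes of the limma package (3.58.1, R 4.3.3), variance trend on, in a model of genotype alone that leaves 2 residual degrees of freedom. Benjamini-Hochberg adjustment ran over all genes tested, at a threshold of 0.05. Intervals are 95%. Deposited values of up to 400 reads stepped in whole reads within 0.1 read plus rounding (100% of nonzero values in each library), and the recovered reads, from 99.997% to 100.001% of the mapped totals, were used in Python 3.11.15 with pandas 2.3.3 for depth, levels per length (GENCODE v44 transcripts lifted to GRCh37) and voom. The fit was tested on simulated data with 200 genes moved by 1 on the log2 scale; 57% of these were called in the right direction and no unchanged gene was called among the 15923 tested; the dispersion, 0.003, was set by hand.

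The 9 genes, the gene lists and the motifs were chosen with earlier results of these data known. Named genes were the 9 members, the 3 called genes with the largest difference of each list, every gene of lists of 5 or fewer, markers, GNA13 and the 3 genes nearest to MYC; EPCAM, LYZ and ITGAM fall under markers, and SIN3A, USP28, FBXW7 and HK2 were named after their values were seen. The result of 1 marker is not reported here. The alternatives tried comprised the fit without a filter, a median-level filter, pseudocounts of 1 and 10, quantile normalization, median centring, the replicate number as a block, no variance trend, a robust variance prior, voom on recovered reads, and each library left out in turn.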

Additional observations from a re-analysis of the deposited data

How the results depend on the processing

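As deposited, 4 of the 9 genes were called, and 5037 genes in all. The count over all genes was 1999 without the filter on low values (1885 of them shared with the 5037) and 2718 without the variance trend (2520 shared); the other fits on 4 libraries gave 5013 to 6616. Of the 9 genes, 2 (MYC and MXI1) were called with median centring and without the variance trend. With 1 library left out, the lone library is assumed to vary like the others and 1 residual degree of freedom is left: limma then called 0 of the 16945 genes and 0 of the 9 whichever library was left out, while 5257 to 5600 genes, and 4 of the 9, had an unadjusted p under 0.05, so these fits give values and not a test of stability. MYC ranged from -0.56 to -0.54 over them (adjusted p from 0.0765 to 0.0814), MXI1 from -1.04 to -0.99, MXD4 from -0.44 to -0.40 and MNT from -0.63 to -0.44.

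Reversed values were all of genes that did not pass the test. With median centring MAX was 0.19, MXD1 0.02, MXD3 0.20, MGA 0.079 and MLX 0.092, and with quantile normalization MXD3 was 0.095. With 1 library left out MAX ranged from -0.041 to 0.0035 (above 0 without GNA13-deficient replicate 1), MXD3 from -0.049 to 0.023 (above 0 on leaving out replicate 1 of either genotype) and MGA from -0.31 to 0.048 (above 0 without GNA13-deficient replicate 2). Median centring turned the called genes from 55.97% lower to 69.14% higher. Counts in the partner lists moved most for the 36 MYC-induced genes, of which 16 were called as deposited, 1 without the filter, 2 without the variance trend, 26 with median centring and 25 with the replicate block, and for the 17 coactivators, with 3 as deposited, 0 without the variance trend, 8 with median centring, 6 with the block and 6 with the filter at the median level. The causes were not tested.

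The replicate numbers are shared between genotypes, but no source pairs the libraries; deviations of same-numbered libraries correlated at 0.453 across 8473 genes (genes are not independent replicates). Under the replicate block, 6616 genes and 4 of the 9 were called, and MYC was at -0.55 as before. Count models on the recovered reads were planned and not run, since the deposited values are not counts; voom was run in their place. Depth did not limit the 9 genes, whose lowest read number was 299.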
